A study of Mus musculus with 14 samples.

Results

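The Argonaute family of the mouse was represented by 7 genes, of which 3 encode PIWI proteins (Piwil1, Piwil2 and Piwil4) and 4 encode AGO proteins (Ago1, Ago2, Ago3 and Ago4). They were taken by gene symbol from the gene rows of the count tables of sorted spermatogonia (Spg) and spermatocytes (Spc), where they made up 7 of 38444 genes listed in either table, and each of the 7 was present in both tables. All 7 passed the filter on low counts in every fit.

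The study asked how retrotransposons are transcribed when their promoters lack DNA methylation, and sequenced polyA RNA from germ cells of Dnmt3CKO/KO mice (KO) and wild-type littermates (WT), both on a C57Bl6/J background. DNMT3C is a methyltransferase of the male germline that methylates the promoters of young retrotransposons. Spg were sorted from P14 testes as live cells that carried Ep-CAM and lacked β2-microglobulin, with 3 KO and 3 WT libraries, and Spc were sorted from mice over 20 days old by Hoechst staining of their DNA content, with 4 KO and 4 WT libraries. Libraries held between 40555726 and 53323651 counts over genes and transposable element subfamilies. KO germ cells do not complete meiosis, and the WT Spc gate can hold later cells than the KO gate.

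Argonaute proteins bind small RNAs and use them as guides to find target transcripts. AGO proteins act with microRNAs in most tissues, where they recruit TNRC6 proteins to repress messenger RNAs. PIWI proteins act with piRNAs in germ cells: PIWIL1 (MIWI) carries the pachytene piRNAs of spermatocytes and round spermatids, PIWIL2 (MILI) is present from fetal germ cells to spermatids and cleaves transposon transcripts, and PIWIL4 (MIWI2) enters the nucleus of fetal prospermatogonia and guides DNA methylation to young retrotransposons.

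The genes lie on 5 chromosomes in GRCm38. Piwil1 (ENSMUSG00000029423.10) is on the plus strand of chr5:128702524-128755474, Piwil2 (ENSMUSG00000033644.5) on the minus strand of chr14:70372477-70429383 and Piwil4 (ENSMUSG00000036912.18) on the minus strand of chr9:14696230-14740733. Ago3, Ago1 and Ago4 are neighbours on the minus strand of chromosome 4: Ago3 (ENSMUSG00000028842.15) runs from 126331704 to 126429556, Ago1 (ENSMUSG00000041530.17) from 126435012 to 126468583 and Ago4 (ENSMUSG00000042500.11) from 126489541 to 126533472, with 5455 bases between Ago3 and Ago1 and 20957 bases between Ago1 and Ago4. Ago2 (ENSMUSG00000036698.11) is alone on the minus strand of chr15:73095844-73184935.

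RefSeq promoter windows (GRCm38.p6, from 250 bases before to 50 bases after a start site) matched 5 of the 7 genes by symbol, with 7 start sites, and none was used for Piwil2 and Ago2. Both strands of each window were searched for the motif of NRF1, a methylation-sensitive activator that the study examined (GCGCA and GCGC with 1 base N between, in 4.6% of 32851 RefSeq windows of this length), an E-box (CACGTG, in 7.15%), a cAMP response element (TGACGTCA, in 1.79%) and the core of the MYB motif (AACNG, in 80.3%). The E-box occurred 2 times in the Piwil1 window and in no other window of the family. The NRF1 motif occurred once in each of 2 overlapping Ago1 windows, as the same match, and in 1 of 2 Piwil4 windows, both as its reverse complement, and no window held the cAMP response element. The MYB core occurred 4 times in the Piwil1 window, 3 times in 1 Piwil4 window and once each in the other Piwil4 window, 1 of the 2 Ago1 windows and the Ago4 window. The 3 stretches that hold the E-boxes and NRF1 motifs are shown because Piwil1, Ago1 and Piwil4 had the greatest differences between genotypes in Spc, with the motif in capitals and distances counted from the start site (-1 is the base before it, and for Ago1 the site is at 126468583).
Piwil1, -210 to -120, plus strand, chr5:128736036-128736126: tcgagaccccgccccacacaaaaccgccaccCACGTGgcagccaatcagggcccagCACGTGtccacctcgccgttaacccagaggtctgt
Ago1, -130 to -49, minus strand, chr4:126468632-126468713: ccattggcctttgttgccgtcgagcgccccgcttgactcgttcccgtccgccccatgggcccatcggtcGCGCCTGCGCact
Piwil4, -69 to -40, minus strand, chr9:14740712-14740741: cgcccatcatGCGCCTGCGCattctggggg
The motif matches describe these letters, and whether any factor binds there was not measured here. The Piwil1 and Ago1 stretches overlapped no annotated exon of their gene, whereas the Piwil4 stretch overlapped 2 exons.

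RNA of the targeted gene was not lower in the KO. Dnmt3c (ENSMUSG00000082079.2, chr2:153696652-153729907, plus strand) gave 1.40 ± 0.516 counts per 1000000 counts (CPM) in KO Spg and 1.27 ± 0.288 CPM in WT Spg (mean ± SD, n = 3 each), and 1.07 ± 0.0829 CPM in KO Spc and 0.630 ± 0.278 CPM in WT Spc (n = 4 each). Neither difference passed the test (adjusted p = 1.00 in Spg and 0.124 in Spc), so the groups rest on their labels. In Spc the KO libraries (0.991 to 1.16 CPM) nevertheless all lay above the WT libraries (0.332 to 0.870 CPM), and with library totals the difference passed (1.52 in log2 units, adjusted p = 0.00642). CPM here and below are scaled by TMM factors over all 14 libraries, while fold changes between genotypes come from the fit of each stage on its own.

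Marker genes set the context for the levels. The summed level of 7 pachytene marker genes (Ldhc, Pgk2, Adam3, Ccna1, Hspa2, Nme8 and Spag6l) ran from 6957 to 14180 CPM in WT Spc, from 121 to 251 CPM in KO Spc, from 147 to 1022 CPM in WT Spg and from 70.2 to 77.4 CPM in KO Spg, and its 7 genes were all called lower in KO Spc. In KO Spg most of this sum was Hspa2 (mean 70.0 CPM). The median log2 fold change of the pachytene markers between KO and WT was -8.35 in Spc. In Spg it was -5.38 over the 6 tested, with none called. The summed level of 8 spermatid markers ran from 69.1 to 1512 CPM in WT Spc and from 5.61 to 13.1 CPM in KO Spc. Markers of other testis cells went the other way in Spc: 7 peritubular and stromal markers summed to between 310 and 3286 CPM in KO Spc and between 30.3 and 41.6 CPM in WT Spc, 7 Leydig cell markers to between 58.0 and 360 CPM against 14.1 to 30.9 CPM, and 7 macrophage markers to between 29.3 and 150 CPM against 4.80 to 7.83 CPM. The 8 Sertoli cell markers summed to between 328 and 1194 CPM in KO Spc and 145 to 534 CPM in WT Spc, and the 8 spermatogonial markers to between 424 and 1106 CPM against 36.5 to 269 CPM. The 8 early meiotic markers, 4 of them called higher and 1 lower in KO Spc, summed to between 1274 and 2449 CPM in KO Spc and 1319 and 2401 CPM in WT Spc. In Spg they summed to between 667 and 1103 CPM in KO and 979 and 1243 CPM in WT. The Sertoli cell markers summed to between 502 and 1709 CPM in KO Spg and 351 and 1299 CPM in WT Spg. Apart from Prm1, Prm2 and Tnp2 in WT Spg and Prm1 in KO Spg, no marker on these lists was at 0 in every library of a group. In bulk RNA, fewer cells of a type and less RNA per cell cannot be told apart, and the part of these markers in the results below was not tested.

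Per base of exon, Piwil2 led the family in 3 groups and Piwil1 in WT Spc, and Piwil4 was lowest in all 4 by merged exons. Levels were divided by the length of the merged exons (CPM per kb), which ran from 4.36 kb for Piwil1 to 16.57 kb for Ago3. With the longest transcript in place of merged exons, Ago2 rather than Piwil4 was lowest in KO Spg, and the order in the other 3 groups was the same. In WT Spc, Piwil1 led with 636 ± 159 CPM per kb (SD, n = 4), followed by Piwil2 at 153 ± 51.7, Ago4 at 19.8 ± 5.42, Ago2 at 4.56 ± 1.503, Ago3 at 2.28 ± 0.627, Ago1 at 1.58 ± 0.650 and Piwil4 at 0.0920 ± 0.112 CPM per kb. Only Ago3 and Ago1 had overlapping ranges among neighbours in this order. In WT Spg, Piwil2 led with 93.3 ± 13.5 CPM per kb (n = 3), and Piwil1 followed at 44.0 ± 48.0 CPM per kb with a range that overlapped those of Piwil2 above it and Ago1 below it. Ago1 stood at 10.1 ± 3.39, Ago4 at 5.52 ± 1.21, Ago3 at 5.46 ± 1.30, Ago2 at 3.42 ± 0.835 and Piwil4 at 1.54 ± 0.259 CPM per kb, where Ago4 and Ago3 did not differ beyond their spread.

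The order in the KO was alike at both stages in that Piwil2 led, Ago1 came next and Piwil4 was last by merged exons, with Piwil1 above Ago2 in KO Spg and below all 4 AGO genes in KO Spc. In KO Spg, Piwil2 stood at 71.9 ± 9.42 CPM per kb, Ago1 at 10.4 ± 2.31, Ago3 at 5.51 ± 1.68, Ago4 at 4.30 ± 0.968, Piwil1 at 2.73 ± 0.279, Ago2 at 2.36 ± 0.635 and Piwil4 at 1.60 ± 0.779 CPM per kb (n = 3). Ranges overlapped between Ago3 and Ago4, between Piwil1 and Ago2 and between Ago2 and Piwil4. In KO Spc, Piwil2 stood at 78.7 ± 20.6 CPM per kb, Ago1 at 8.47 ± 0.469, Ago2 at 6.07 ± 3.04, Ago3 at 4.58 ± 0.344, Ago4 at 3.94 ± 0.205, Piwil1 at 3.28 ± 0.858 and Piwil4 at 0.642 ± 0.333 CPM per kb (n = 4). Here Ago2 overlapped with Ago1 above it and Ago3 below it, and Piwil1 overlapped with Ago4.

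**Figure D1:**
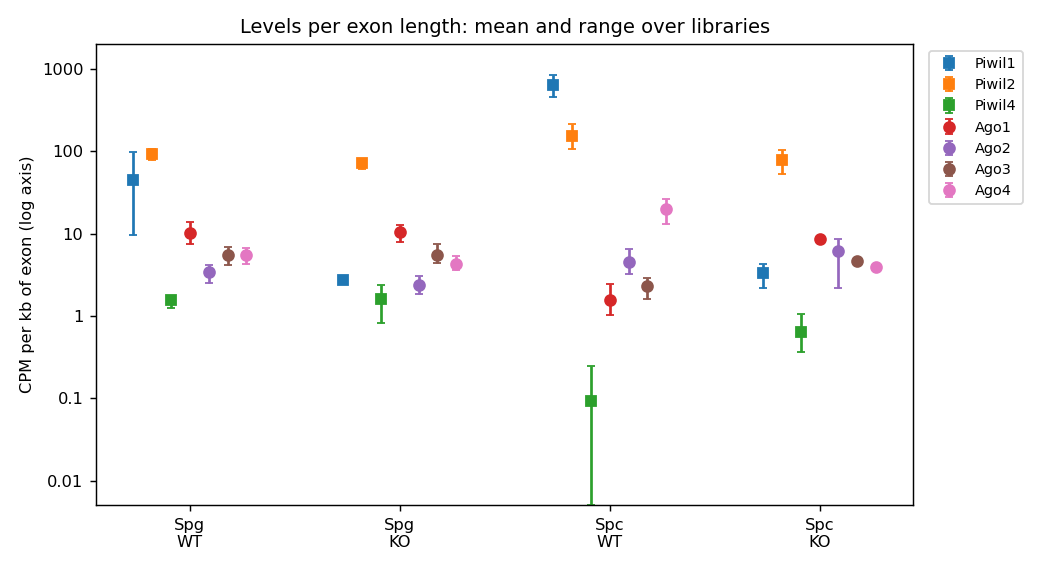
Level of each gene per kb of merged exon in the 4 groups (CPM per kb on a log axis, squares for PIWI and circles for AGO genes, points for means and bars for the range over the 3 Spg or 4 Spc libraries). Piwil1 leads in WT Spc at 636 CPM per kb and stands at 3.28 CPM per kb in KO Spc, while Piwil2 stays between 71.9 and 153 CPM per kb; the Piwil4 bar in WT Spc runs to the bottom of the axis because 1 library has 0 counts.

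In Spc, the question was how the family differs between KO and WT cells. Piwil1 and Ago4 were lower in the KO, Ago1 and Ago3 were higher, and Piwil2, Piwil4 and Ago2 did not pass the test. The count of 4 of 7 genes past an adjusted p of 0.01 (edgeR quasi-likelihood test, Benjamini-Hochberg adjustment over all features) stood beside 57.4% of the 22848 features tested, so a share of this size is near the background. The 2 higher and 2 lower genes stood beside 27.4% and 30.1% of features called in those directions. Scaling by library totals in place of TMM moved the median over all genes (log2) from 0.11 to 0.79 and the calls from 6254 higher and 6870 lower to 8331 and 4953, and left the same 4 genes of the family called in the same directions. Their log2 fold changes by library totals were -6.87 for Piwil1, -1.58 for Ago4, 3.07 for Ago1 and 1.68 for Ago3. Of the 7 genes, 6 had levels that did not overlap between KO and WT libraries, beside 67.5% of all features.

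Piwil1, the carrier of pachytene piRNAs, gave 2733, 3690.5, 2007 and 2660.5 CPM in WT Spc replicates 1 to 4 and 13.6, 9.51, 18.4 and 15.7 CPM in the KO replicates. Every KO library lay more than 100 times below every WT library. The log2 fold change came to -7.57, with an SE of 0.35 and an adjusted p of 2.53e-06, a level 191 times lower. In raw terms Piwil1 took between 0.161% (95% Wilson interval 0.160 to 0.162%) and 0.250% (0.248 to 0.251%) of all counts in WT Spc and between 0.00117% (0.00107 to 0.00127%) and 0.00215% (0.00202 to 0.00229%) in KO Spc. These intervals cover counting error only. The pachytene marker sum differed in the same direction between these libraries, with each of its 7 genes lower in the KO.

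Piwil2, the PIWI gene shared by all germ cell stages, gave 566.6, 1123, 954.0 and 594.6 CPM in WT Spc and 395.1, 280.9, 542.4 and 445.1 CPM in KO Spc. All 4 KO libraries were below all 4 WT libraries, but the highest KO and lowest WT values lay close together. Its log2 fold change of -0.93 (SE 0.28) missed the threshold with an adjusted p of 0.0129. It passed under the DESeq2 Wald test (adjusted p = 0.00247), with DESeq2 size factors (-0.98, adjusted p = 0.00871), with no filter beyond 1 count (-0.96, adjusted p = 0.00881) and without WT replicate 1 (-1.09, adjusted p = 0.00928), and was -0.29 with an adjusted p of 0.435 when libraries were scaled by their totals.

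Piwil4, the nuclear PIWI gene of fetal germ cells, was scarce at this stage. It had 103, 225, 301 and 97 counts in KO Spc, or 2.08, 4.03, 5.74 and 1.98 CPM, and 3, 19, 55 and 0 counts in WT Spc, or 0.0926, 0.573, 1.32 and 0 CPM. The count of 0 in WT replicate 4 allows a level of up to 0.104 CPM. KO libraries were all above WT libraries, with a log2 fold change of 2.81 (SE 0.95) that missed the threshold (adjusted p = 0.0218). It passed under the DESeq2 Wald test (2.84, adjusted p = 0.00356). Without WT replicate 3, which held the most counts, it was 3.95 with an adjusted p of 0.0060. The spermatogonial markers moved the same way, and among the KO libraries Piwil4 was highest in replicates 2 and 3, which had spermatogonial marker sums of 1106 and 1071 CPM against 434 and 424 CPM in replicates 1 and 4.

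Ago1, an AGO protein without strong slicing activity, was the AGO gene that rose most. It gave 69.6, 73.8, 65.8 and 65.9 CPM in KO Spc and 8.21, 13.2, 20.1 and 9.74 CPM in WT Spc. The KO libraries were closely grouped and all lay more than 3 times above the highest WT library. Ago1 rose by 2.46 in log2 units (SE 0.29, adjusted p = 6.84e-05), a level 5.49 times higher.

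Ago3, its neighbour on chromosome 4, rose less, with 78.1, 68.2, 81.6 and 75.5 CPM in KO Spc and 26.4, 45.7, 47.5 and 31.7 CPM in WT Spc. Again no KO library overlapped a WT library. Its rise was 1.03 in log2 units (SE 0.22, adjusted p = 0.00218), or 2.05 times higher. The call was lost under 3 alternatives: without WT replicate 4 the log2 fold change was 0.94 (adjusted p = 0.0108), and 0.93 (adjusted p = 0.0217) when replicates 1 and 4, which resembled each other more than any other pair, were summed within each genotype. With replicates 2 and 3 alone, a choice made after seeing the data, it was 0.72 (adjusted p = 0.0903).

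Ago4, the AGO protein known from the sex body of spermatocytes, went the other way from both neighbours. It gave 27.9, 25.3, 28.3 and 28.1 CPM in KO Spc and 137.0, 182.7, 90.5 and 140.6 CPM in WT Spc. The lowest WT library was more than 3 times above every KO library. Its log2 fold change was -2.31 (SE 0.23, adjusted p = 2.86e-05), a level 4.95 times lower. WT replicate 3 had the lowest Ago4 and Piwil1 levels and the highest Ago1, Ago2, Ago3 and Piwil4 levels among the WT Spc libraries. It also had the lowest pachytene sum (6957 CPM) of that group. Its spermatogonial (269 CPM), early meiotic (2401 CPM), spermatid (1512 CPM) and Sertoli cell (534 CPM) sums were the highest there. The part of these markers in the levels of the family was not tested.

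Ago2, the AGO protein that cleaves its targets, varied more within the KO than between genotypes. It gave 115.9, 30.4, 72.4 and 121.7 CPM in KO Spc and 45.3, 70.7, 90.9 and 49.3 CPM in WT Spc, and the groups overlapped. Its log2 fold change was 0.44 (SE 0.40, adjusted p = 0.341). Replicates 1 and 4 were high in the KO and low in the WT, so that the ratio of KO to WT was 2.56 and 2.47 between libraries of these numbers but 0.430 and 0.797 between those numbered 2 and 3. These ratios are a description, since the numbers were not shown to pair the Spc libraries. Replicates 1 and 4 resembled each other within each genotype, so their ratios may not be separate observations. With replicates 2 and 3 alone the log2 fold change was -0.62 (adjusted p = 0.279). KO replicates 1 and 4 also had the highest Leydig cell marker sums, 360 and 293 CPM against 58.0 and 65.6 CPM in replicates 2 and 3, and Sertoli cell sums of 1194 and 1118 CPM against 433 and 328 CPM. The spermatogonial sums went the other way, as given for Piwil4. The peritubular sum was 3286, 2251, 310 and 2795 CPM in replicates 1 to 4, and the sum of 8 early meiotic markers was 2149, 1274, 2323 and 2449 CPM, lowest in replicate 2 as was Ago2. The part of these cells in the Ago2 level was not tested.

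**Figure D2:**
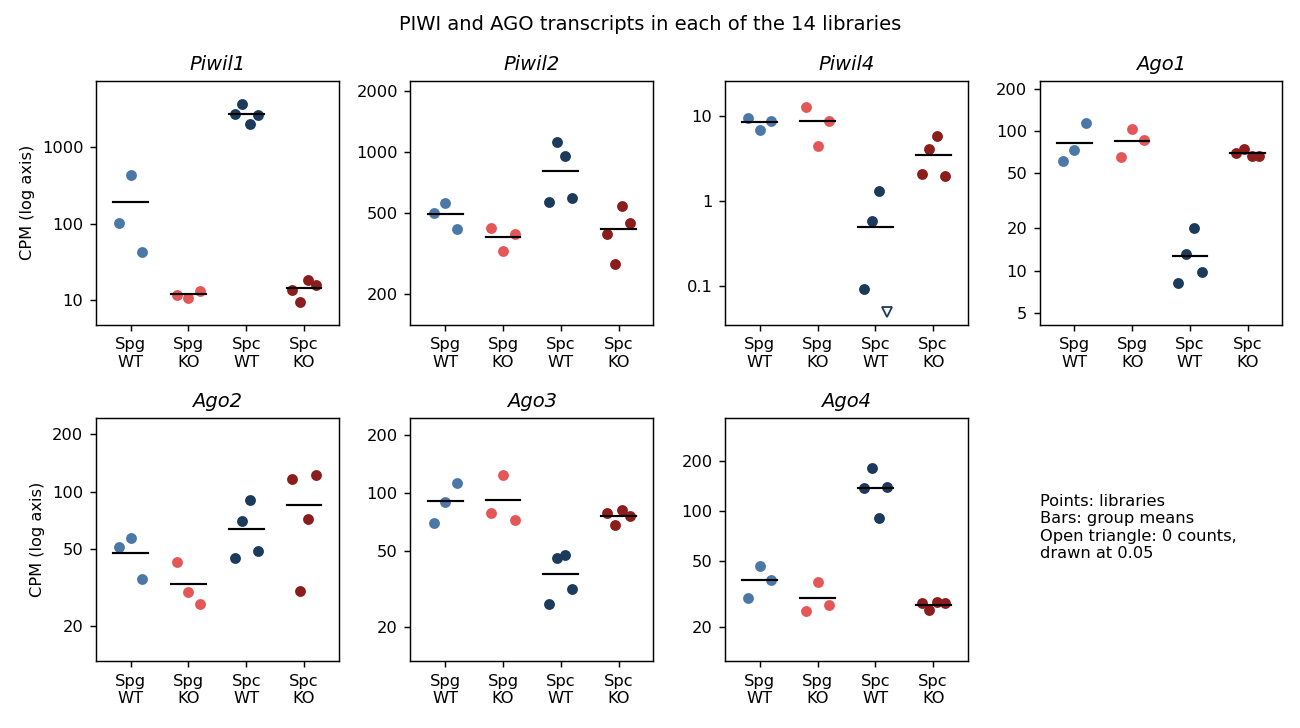
CPM of each gene in each library (log axes, 1 panel per gene, points for the 3 Spg or 4 Spc libraries of each genotype in replicate order and bars for group means; an open triangle marks 0 counts). In Spc, Piwil1 and Ago4 are lower and Ago1 and Ago3 higher in every KO library than in every WT library, and KO Ago2 spreads from 30.4 to 121.7 CPM.

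In Spg, the same comparison asked whether the family differs in the spermatogonial sort, which also held early meiotic marker transcripts. No gene of the family passed the test, and neither did most of the transcriptome: 16 of 21580 features were called, or 0.0741% (0.0695% higher and 0.00463% lower). With the replicate number as a block, 119 features were called, 38 higher and 81 lower, and none of the family. At an unadjusted p under 0.05, 2 of the 7 genes passed, Piwil1 and Piwil2, beside 7.26% of all features, and DESeq2, which called 538 features, called Piwil1 alone. Piwil1 was also the 1 gene of 7 whose groups did not overlap, beside 11.9% of features.

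Piwil1 gave 102.2, 431.1 and 42.3 CPM in WT Spg and 11.7, 10.8 and 13.2 CPM in KO Spg. The KO libraries were close to each other and all below the WT libraries, whereas the WT libraries spread 10.2-fold. This gave a log2 fold change of -4.07 (SE 0.80, unadjusted p = 0.000938) with an adjusted p of 0.0980. Over the alternatives the log2 fold change ran from -4.55 without WT replicate 3 to -2.61 without WT replicate 2, its highest library, and it was -3.38 (adjusted p = 0.0707) with the replicate block. The adjusted p ran from 0.000749 with the DESeq2 Wald test to 0.531 without one library, and it was 0.0097 with no filter beyond 1 count. In WT Spg the pachytene marker sum was 291, 1022 and 147 CPM in replicates 1 to 3, the same order as Piwil1. In KO Spg it was 71.8, 70.2 and 77.4 CPM, most of it from Hspa2.

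Piwil2 gave 502.4, 560.0 and 417.6 CPM in WT Spg and 421.4, 324.6 and 393.7 CPM in KO Spg, with overlap between the highest KO and the lowest WT library. Its log2 fold change was -0.42 (SE 0.17, adjusted p = 0.607). Piwil4 gave 9.51, 6.79 and 8.67 CPM in WT Spg and 12.8, 4.37 and 8.71 CPM in KO Spg, a log2 fold change of 0.02 (SE 0.38). Neither gene separated the genotypes here, and for Piwil4 the sign depended on which library was left out.

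Each AGO gene had overlapping ranges between genotypes in Spg. Ago1 ranged from 60.6 to 113.1 CPM in WT Spg and from 64.9 to 102.3 CPM in KO Spg, with a log2 fold change of 0.02 (SE 0.25). Ago3 ranged from 69.5 to 112.6 CPM and from 72.5 to 123.5 CPM, a log2 fold change of -0.02 (SE 0.24). The signs for both turned when single libraries were left out. Ago2 ranged from 34.9 to 57.6 CPM in WT Spg and from 26.1 to 43.1 CPM in KO Spg, a log2 fold change of -0.58 (SE 0.26, adjusted p = 0.717), and Ago4 from 29.9 to 46.7 CPM and from 24.9 to 37.6 CPM, a log2 fold change of -0.40 (SE 0.23, adjusted p = 0.930). Between libraries of the same number, the log2 ratio of KO to WT was below 0 in all 3 pairs for Ago2 (-0.25, -0.94 and -0.42), Ago4 (-0.26, -0.32 and -0.50) and Piwil2 (-0.25, -0.79 and -0.09). Piwil1 was below 0 in all 3 pairs as well (-3.13, -5.32 and -1.68). The share of all features with this pattern was not counted, so it sets no gene apart. With the replicate block Ago2, Ago4 and Piwil2 were at -0.57 (adjusted p = 0.228), -0.39 (adjusted p = 0.271) and -0.41 (adjusted p = 0.449). These are differences that were not detectable with 3 libraries a group, not evidence that levels were equal.

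**Figure D3:**
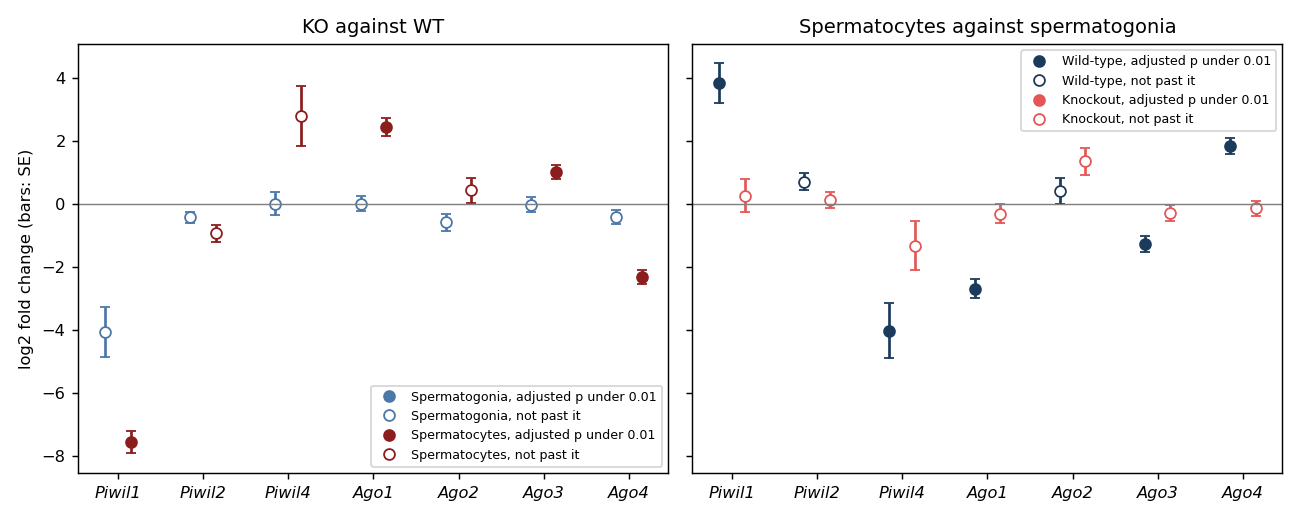
log2 fold change of each gene between KO and WT within each stage (left) and between Spc and Spg within each genotype (right), with bars for the SE and filled points for an adjusted p under 0.01. In Spc, Piwil1 (-7.57) and Ago4 (-2.31) lie below 0 and Ago1 (2.46) and Ago3 (1.03) above it; no point is filled for Spg or for the KO stage comparison.

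The difference between the genotype effects of the stages was fitted with all 14 libraries together. It passed for 3 of 7 genes, Piwil1, Ago1 and Ago4, beside 24.9% of 25318 features (1 higher beside 10.7%, and 2 lower beside 14.3%). The log2 fold change between KO and WT was lower in Spc than in Spg by 3.59 for Piwil1 (-3.59, SE 0.77, adjusted p = 0.00277) and by 1.97 for Ago4 (-1.97, SE 0.34, adjusted p = 0.000837), and higher by 2.38 for Ago1 (SE 0.43, adjusted p = 0.000980). Ago3 had a difference of 0.99 (SE 0.36, adjusted p = 0.0381), Piwil4 of 2.71 (SE 1.16, adjusted p = 0.0693), Ago2 of 0.95 (SE 0.57, adjusted p = 0.186) and Piwil2 of -0.58 (SE 0.37, adjusted p = 0.211). The Piwil1 call was lost without WT Spg replicate 1 (-3.18, adjusted p = 0.0114), and scaling by library totals left both Piwil1 (-2.82, adjusted p = 0.0101) and Ago4 (-1.21, adjusted p = 0.0106) just short of it and brought Ago3 past it (1.67, adjusted p = 0.00774). Over the alternatives the Piwil1 difference ran from -4.94 to -2.82. Piwil4 passed without WT Spc replicate 3 (3.85, adjusted p = 0.00890), the library with the most Piwil4 counts in its group. With library totals the median of all genes went from 0.20 to 0.90 and the calls from 2706 higher and 3608 lower to 4287 and 1743. With Spc replicates 2 and 3 alone, Ago1 was the only gene of the family still called, while Piwil1 was at -3.49 (adjusted p = 0.0388) and Ago4 at -1.83 (adjusted p = 0.0166). Over all features the calls then fell from 6314 of 25318 to 2112 of 25283.

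Between stages, WT cells showed large shifts in the family. From WT Spg to WT Spc, Piwil1 rose by 3.85 in log2 units (SE 0.62, adjusted p = 0.000128) and Ago4 by 1.84 (SE 0.25, adjusted p = 4.58e-05), while Piwil4 fell by 4.02 (SE 0.87, adjusted p = 0.00107), Ago1 by 2.68 (SE 0.30, adjusted p = 1.35e-05) and Ago3 by 1.26 (SE 0.25, adjusted p = 0.000660). That is 5 of 7 genes beside 51.4% of all features, with 2 higher beside 28.9% and 3 lower beside 22.5%, and 6 of 7 without overlap between groups beside 65.2%. The Piwil1 rise was called under every alternative tried and ran from 2.99 with library totals to 5.14 without WT Spg replicate 2, its highest library there. For Piwil4 the fall was called under every alternative as well, with a log2 fold change from -5.17 to -3.28. Piwil2 had a log2 fold change of 0.71 (SE 0.27, adjusted p = 0.0295) and Ago2 of 0.42 (SE 0.40, adjusted p = 0.380), and both turned negative, to -0.07 and -0.35, when libraries were scaled by their totals, where the median of all genes went from 0.02 to -0.76 and the calls from 7325 higher and 5701 lower to 4631 and 8813. By that scaling Ago1 was at -3.41, Ago3 at -2.03 and Ago4 at 1.0, all still called. These stage contrasts share the WT Spc and WT Spg libraries with the genotype comparisons, so they are not separate evidence.

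KO cells showed no such shift that passed the test. From KO Spg to KO Spc, 0 of 7 genes were called by edgeR, beside 2.99% of all features (2.95% higher and 0.0355% lower), and 1 gene, Ago2, had an unadjusted p under 0.05, beside 24.5% of all features. The DESeq2 Wald test called none of the 7, beside 2414 of 25318 features. Piwil1 stood at 11.9 ± 1.22 CPM in KO Spg and 14.3 ± 3.74 CPM in KO Spc, a log2 fold change of 0.27 (SE 0.53, adjusted p = 0.792). Ago4 stood at 29.9 ± 6.73 and 27.4 ± 1.42 CPM (-0.13, SE 0.24), Ago1 at 84.5 ± 18.8 and 68.8 ± 3.80 CPM (-0.30, SE 0.29), and Ago3 at 91.4 ± 27.9 and 75.8 ± 5.69 CPM (-0.27, SE 0.25). The KO libraries of both stages overlapped for all 7 genes, beside 26.2% of features that did not overlap. Ago2 had the greatest difference, 33.1 ± 8.92 CPM in KO Spg and 85.1 ± 42.6 CPM in KO Spc (1.36, SE 0.42, adjusted p = 0.0582), and it passed without KO Spc replicate 2, its lowest library there (1.60, adjusted p = 0.00773). Piwil4 went from 8.61 ± 4.20 to 3.46 ± 1.79 CPM (-1.32, SE 0.78, adjusted p = 0.320), and Piwil2 from 379.9 ± 49.8 to 415.9 ± 108.8 CPM (0.13, SE 0.26).

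**Figure D4:**
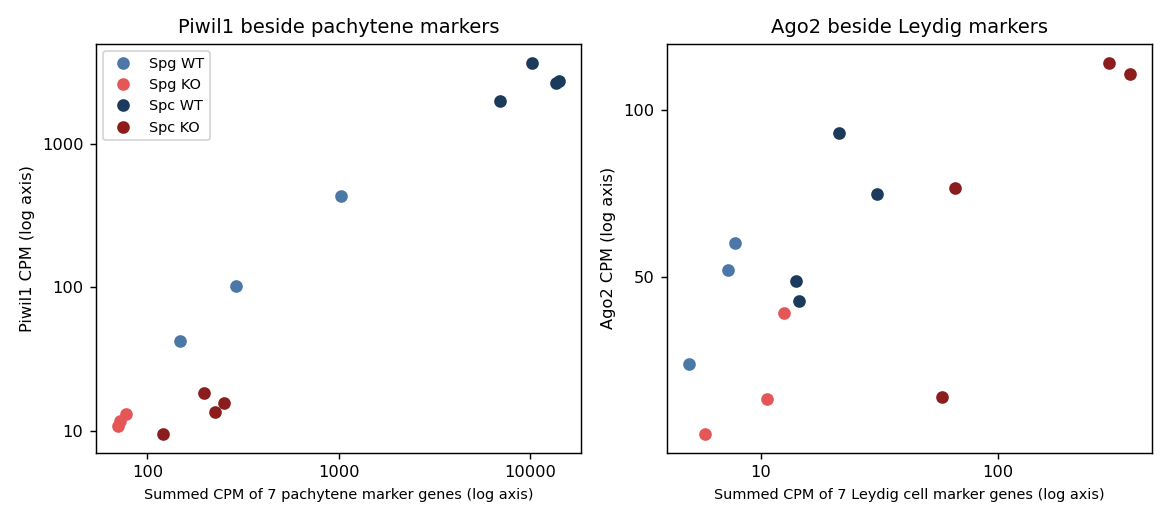
Left, Piwil1 CPM against the summed CPM of 7 pachytene marker genes in each of the 14 libraries; right, Ago2 CPM against the summed CPM of 7 Leydig cell marker genes (log axes, 1 point per library, coloured by group as in the legend). KO libraries of both stages sit at 9.51 to 18.4 CPM of Piwil1, WT Spg at 42.3 to 431.1 CPM and WT Spc at the top. On the marker axis WT Spg replicate 3 (147 CPM) lies above all KO Spg libraries (70.2 to 77.4 CPM). It lies within the range of the KO Spc libraries (121 to 251 CPM). KO Spc replicates 1 and 4 lie at the upper right of the Ago2 panel.

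Genes that work with the family were taken from a list of 21 genes for microRNA biogenesis and effector steps and a list of 25 genes for the piRNA pathway. In KO Spc, piRNA genes were mostly lower. Of the 25, 15 fell, 2 rose and 8 did not pass the test, with a median log2 fold change of -1.60 beside 0.11 over all genes. Tdrd6, a Tudor protein of the chromatoid body, fell by 9.15 (SE 0.92, adjusted p = 2.68e-05), from 2071 ± 1125 to 3.63 ± 2.94 CPM. Gtsf1, a cofactor of PIWI slicing, fell by 4.66 (SE 0.36, adjusted p = 6.19e-06), and Pld6, the mitochondrial factor that helps to cut piRNA precursors, fell by 4.18 (SE 0.39, adjusted p = 1.85e-05). Tex15, a nuclear partner of PIWIL4, rose by 2.54 (SE 0.41, adjusted p = 0.000393), and Btbd18, a nuclear factor needed for transcription of pachytene piRNA precursors, by 2.23 (SE 0.57, adjusted p = 0.00570). In the share of calls, 68.0% of the piRNA list stood beside 57.4% of all features, and 15 of 25 lower beside 30.1%.

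The microRNA list was mixed in KO Spc. Of its 21 genes, 7 rose, 2 fell and 12 did not pass, with a median log2 fold change of 0.58. The 9 calls make 42.9% of the list, below the 57.4% of all features, and the 7 higher stood beside 27.4%. Tnrc6b, which encodes a partner of AGO proteins in repression, rose by 2.74 (SE 0.39, adjusted p = 0.000206), while Tnrc6c of the same family fell by 1.24 (SE 0.22, adjusted p = 0.000729). Lin28a, a repressor of let-7 processing, rose by 2.89 (SE 0.76, adjusted p = 0.00645) and Mov10, a helicase bound to AGO proteins, by 2.23 (SE 0.40, adjusted p = 0.000755). Tarbp2, a partner of Dicer, fell by 2.68 (SE 0.33, adjusted p = 8.28e-05). Scaling by library totals moved the split of calls to 10 higher and 1 lower, with Tnrc6c no longer called (-0.51, adjusted p = 0.0455). Over all 22848 features that scaling gave 8331 higher and 4953 lower. In Spg none of the 46 genes on both lists was called by edgeR, beside 0.0741% of all features. An unadjusted p under 0.05 was reached by 9, all among the 25 of the piRNA list, beside 7.26% of all features. DESeq2 called 1 of the 46, beside 538 of 21580 features.

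Across stages in WT cells, more piRNA genes rose than fell, and more microRNA genes fell than rose. From WT Spg to WT Spc, 15 of 25 piRNA genes rose and 3 fell, beside 28.9% of all features higher and 22.5% lower, with Tdrd6 up by 5.93 (SE 1.15, adjusted p = 0.000498), Gtsf1 by 3.16 (SE 0.37) and Pld6 by 2.88 (SE 0.40), and Tex15 down (-3.23, SE 0.40), Btbd18 down (-2.36, SE 0.51) and Morc1, another nuclear silencing factor, down (-1.51, SE 0.37). Of the microRNA list 4 of 21 rose and 10 fell (beside the same 28.9% and 22.5%), with Lin28a (-3.98, SE 0.72), Trim71 (-3.90, SE 0.83) and Mov10 (-2.92, SE 0.39) falling most and Tarbp2 (2.41, SE 0.31), Limd1 (1.33, SE 0.38) and Xpo5 (0.80, SE 0.21) rising most. Limd1 was not called by library totals (0.46). By that scaling the splits were 11 higher and 4 lower for the piRNA list and 1 higher and 11 lower for the microRNA list, and Xpo5 changed sign (-0.05). Over all 25318 features it gave 4631 higher and 8813 lower. From KO Spg to KO Spc none of the 46 was called by edgeR, beside 2.99% of all features, and 10 had an unadjusted p under 0.05, beside 24.5%. DESeq2 called 1 of the 46, beside 2414 of 25318 features.

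The genotype effect differed between stages for 13 of 25 piRNA genes, 12 of them lower in Spc, and for 4 of 21 microRNA genes, 2 in each direction, beside 24.9% of all features. The named ones were Gtsf1 (-3.78, SE 0.48, adjusted p = 0.000180), Pld6 (-3.62, SE 0.52, adjusted p = 0.000303), Tcfl5 (-3.23, SE 0.35, adjusted p = 0.000153) and Tex15 (2.64, SE 0.56, adjusted p = 0.00253) of the piRNA list. On the microRNA list they were Tarbp2 (-2.78, SE 0.41), Tnrc6c (-1.11, SE 0.27), Tnrc6b (2.62, SE 0.51) and Mov10 (2.22, SE 0.54). With library totals 9 piRNA genes were called in place of 13, 1 higher and 8 lower, and the microRNA split became 4 higher and 1 lower, with Tnrc6c not called (-0.35, adjusted p = 0.289). Over all 25318 features that scaling gave 4287 higher and 1743 lower.

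**Figure D5:**
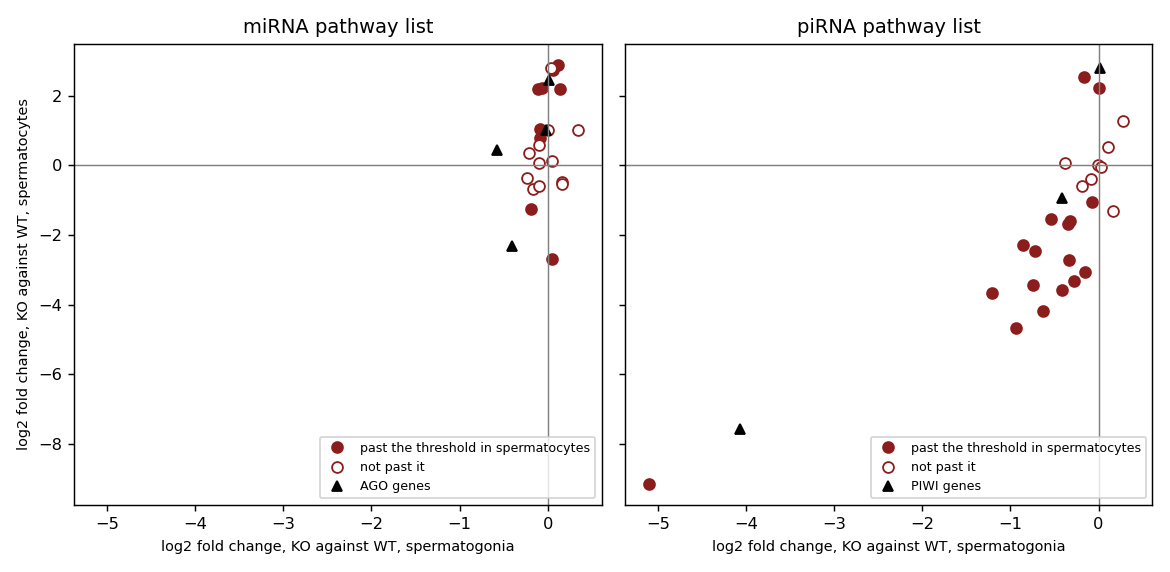
log2 fold change between KO and WT in Spg (horizontal axis) and in Spc (vertical axis) for the 21 genes of the microRNA list with the 4 AGO genes (left) and the 25 genes of the piRNA list with the 3 PIWI genes (right); circles are list genes, filled where the Spc adjusted p was under 0.01, and triangles are the family. In Spc the piRNA list has its median at -1.60 and the microRNA list at 0.58, and the 2 comparisons share no libraries.

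Genes whose pattern over the 14 libraries was most like that of a member were ranked by the root mean square (RMS) difference of log2 CPM, each gene centred on its own mean, among 16917 other genes. For Piwil1 they were Lypd10 (RMS difference 0.241), Cox8c (0.243), which encodes a testis subunit of cytochrome oxidase, and Mag (0.417). Ago4 was followed most closely by Icmt (0.136), Gm49387 (0.156) and Ccp110 (0.165), and Ago1 by Nrip3 (0.170), Scube1 (0.171) and Ddx19a (0.194). Ago3 had the closest match of all members, Slc35e2 (0.118), ahead of Stxbp4 (0.156) and Map3k7 (0.160). Piwil2 was followed by Gtpbp1 (0.187), Oxr1 (0.188) and Gm29247 (0.202), Ago2 by Usf3 (0.246), Lclat1 (0.277) and Tcp11l2 (0.278), and Piwil4 by Gm41 (0.354), Tpbg (0.459) and B3gnt7 (0.466). None of the 21 was another member of the family. The matches share library and depth with the members and are a description.

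Transposable element copies inside the genes were read from the tables of single copies, in transcripts per 1000000 (TPM). Piwil1 was the only member with a copy of a young family (L1Md_T, L1Md_A, L1Md_Gf, IAP, MMERVK10C or RLTR10) at a group mean of 0.5 TPM or more. That copy, an RLTR10E long terminal repeat of 310 bases on the strand opposite to Piwil1, had 1.33, 1.19, 0.443 and 1.55 TPM in WT Spc replicates 1 to 4, 0, 1.62, 0 and 0.345 TPM in KO Spc, and 0 in all Spg libraries. KO and WT Spc overlapped. Piwil1 also holds an L1Md_T copy of 6183 bases on the opposite strand, at a mean of 0.189 TPM in KO Spc and 0.269 TPM in WT Spc, and the group means in Spg were 0.043 and 0.058 TPM.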

How the data were processed

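RNA from 14 libraries was read as raw counts per gene and per transposable element subfamily, which the authors made by trimming paired reads with cutadapt 4.0, aligning them with STAR 2.7.3a while keeping multimapping reads, and counting with TEtranscripts, and deposited without normalization. Values for single element copies were deposited in TPM, made by the authors with TElocal. Tools and the genome (GRCm38) are as given in the submitters' processing notes and the study's methods. The fold changes and p-values of the authors' own DESeq2 1.44.0 comparisons in these tables were not used. One Spg library per genotype was left out by the study for RNA quality, and Spg columns numbered 4 belong to samples titled replicate 3. Whether replicates come from separate animals is not stated per library, so p-values measure the spread between these libraries.

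Features were filtered with filterByExpr, scaled by TMM and tested with the quasi-likelihood test of edgeR 4.0.16 (two-sided, Benjamini-Hochberg adjustment over all features, threshold 0.01) in R 4.3.3, within each stage for KO against WT and over all 14 libraries for the comparisons across stages. Levels are CPM on TMM factors over all 14 libraries, divided by merged exon lengths of GENCODE M21. The test was tried on simulated counts first. Alternatives were DESeq2 1.42.0 (Wald test and size factors), library totals, other filters and thresholds, leaving out 1 library at a time and a block for the replicate number, and spermatocyte replicates 2 and 3 alone were added after seeing the data. Deviations of same-numbered KO and WT libraries had r = 0.46, 0.16 and 0.17 for Spg replicates 1 to 3. In Spc they had 0.08, 0.22, 0.01 and 0.12 for replicates 1 to 4. Pairs of different numbers ran from -0.4 to 0.24 in Spg and from -0.18 to 0.13 in Spc. The 0.24, for KO replicate 2 and WT replicate 3, exceeded the same-number values of Spg replicates 2 and 3. Whether the numbers pair the libraries was thus unclear, and the main tests used no block. Spc replicates 1 and 4 resembled each other within each genotype (chi-square per degree of freedom of 11.6 in KO and 14.87 in WT, against 129.29 to 285.91 for other Spc pairs), which is still beyond sampling noise, and they were counted separately, as the labels give 4 Spc replicates a genotype, where the study's figure legend on element expression gives 3. The closing section gives the counts with the pair summed.

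The genes named were the 7 members, up to 3 called genes of each list with the largest rise and fall per comparison at a mean count of at least 100, the 3 genes most like each member, and Dnmt3c. The members and lists were chosen with earlier results of these data known.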

Additional observations from a re-analysis of the deposited data

Results flagged for a closer look

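Ago4 in KO Spc had 1 library apart from the others: replicate 2 stood at 25.3 CPM and the other 3 between 27.9 and 28.3 CPM, a gap of 0.845 of the range of the group, above Dixon's critical value for 4 samples. Chance alone flags about 1 in 20 groups. The fall of Ago4 against WT Spc was called with that library left out.

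The genotype effect differed between Spc and Spg, by the test of the difference itself, for Piwil1 (-3.59 on the log2 scale), Ago1 (2.38) and Ago4 (-1.97), with the edgeR adjusted p-values of 0.00277, 0.000980 and 0.000837.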

How the results depend on the processing

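All comparisons across stages and genotypes rest on 3 or 4 libraries a group and on sorts that differ in cell content, and Piwil4 rests on 0 to 55 counts in WT Spc. Between KO and WT Spc, 3 to 5 genes of the family and 20 to 30 of the 46 list genes were called with any library left out, while the calls over all features ran from 10892 of 23868 without WT Spc replicate 1 to 14396 of 23798 without WT Spc replicate 3. With Spc replicates 1 and 4 summed within each genotype, 3 genes of the family, 19 list genes and 8874 of 23213 features were called, in place of 4, 26 and 13124 of 22848. The difference of genotype effects was then called for 3543 of 24706 features in place of 6314 of 25318.

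With the replicate number as a block, 0 genes of the family and 0 list genes were called in Spg, Piwil1 there was at -3.38 (adjusted p = 0.0707) and Piwil4 at -0.10. In Spc, where it was also unclear that the numbers pair the libraries, the block brought Piwil4 past the threshold (3.54, adjusted p = 0.00779). It changed no other call of the family.

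In Spg, where no gene of the family was called, the DESeq2 Wald test called 1 gene of the family and 1 list gene. It called 538 of 21580 features in all. With no filter beyond 1 count, 1 gene of the family was called, beside 157 of 33762 features. Leaving out single Spg libraries turned the sign of Piwil4 (-0.36 to 0.33), Ago1 (-0.17 to 0.29) and Ago3 (-0.29 to 0.14), and library totals put Ago3 at 0.01. From KO Spg to KO Spc the count ran from 0 to 1 for the family and from 0 to 1 for the list genes with libraries left out, both 1 without KO Spc replicate 2. Over all features the calls then ran from 112 of 26139 to 1014 of 25092, with 916 of 25024 without KO Spc replicate 2. The signs of Piwil2 (-0.07 to 0.23) and Ago4 (-0.30 to 0.00) turned or reached 0 there. At an adjusted p under 0.05, 2 list genes passed, beside 2108 of 25318 features. With DESeq2 1 list gene passed, beside 2414 of 25318. Scaling by library totals turned Piwil2 (-0.07) and Ago2 (-0.35) between WT stages and Piwil2 in the difference of genotype effects (0.10).

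With Spc replicates 2 and 3 alone, Ago2 between KO and WT was at -0.62, 16 list genes were called in place of 26 and 5503 of 23762 features in place of 13124 of 22848, and the difference of genotype effects was called for 1 gene of the family and 8 list genes in place of 3 and 17 and for 2112 of 25283 features in place of 6314 of 25318. With all 14 libraries and an adjusted p under 0.05, that difference was called for 26 list genes in place of 17 and for 11350 features in place of 6314. Of the 21 genes most like a member, 9 were shared when log2 CPM was also scaled to unit spread. The cause of these shifts was not tested.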
